A study of Mus musculus with 18 samples.

Results

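The external granule cell layers of 12 newborn (P0) mice are compared here, 6 from litter 3 and 6 from litter 1, out of 18 mice of 3 litters in the series. The mice were assigned by the slide named in the sample titles. Each slide carried the 6 mice of a single litter, and litter therefore cannot be told apart from slide. Litter 3 gave 3 Ts1Cje and 3 euploid mice, and litter 1 gave 3 Ts1Cje and 3 euploid mice, so the genotypes were balanced between the litters. Ts1Cje mice carry a segment of chromosome 16 in 3 copies, and their euploid littermates carry the usual 2. All mice share the strain label B6EiC3SnF1/J A/a, a mixed B6 and C3 background, and came from crosses of Ts1Cje males with wild-type females. Each array held RNA of 1 individually dissected layer. Litter 2, the remaining 6 mice, enters the signal floor, an alternative fit of all 18 arrays and the placing of the other litters. The source label of 2 of its arrays, both of euploid mice, names cerebellum. These arrays were kept in the floor and in the fit of 18 arrays. What they add to the spread in that fit was not tested. The comparison measures how far layers of 1 age and the same genotype balance differ from litter to litter. Each litter is a single litter, so the p-values measure the spread between pups of that litter on its slide and not the spread between litters.

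The external granule cell layer covers the surface of the newborn cerebellum. It holds the granule cell precursors, which divide under the influence of Sonic hedgehog from Purkinje cells, leave the cell cycle in the inner part of the layer and migrate inwards as young granule neurons. The layer lies under the meninges and is crossed by blood vessels and by the fibres of Bergmann glia, so a dissected layer, which is not sorted, can hold RNA of these cells too. In such tissue samples, fewer cells of a type and less RNA per cell cannot be told apart.

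The 11297 probes with a mean log2 signal over the 18 arrays of at least 7.14 were tested, of 46632 on the array. They stood for 7136 named genes, each read by its brightest tested probe. A probe under this floor in 1 litter could therefore be tested through its signal in the others. The arrays carried no counts, and their number limits the precision. Array to array correlations over the tested probes were between 0.948 and 0.9898, and no pair of arrays was identical. The genes of the chromosome 16 segment followed the genotype labels, with positive differences of Ts1Cje minus euploid mice in 25 of 26 tested and a median log2 difference of 0.40. Of 18 granule cell precursor markers 11 were above the signal floor, and Zic1, a transcription factor of the granule lineage, had log2 signals of 12.58 to 12.98 in litter 3 and 12.58 to 12.90 in litter 1. Xist, the RNA of the inactive X chromosome, was above 10 on the log2 scale in 2 of 6 mice of litter 3 and in 3 of 6 mice of litter 1. In litter 1, 1 euploid mouse (replicate 4) had neither Xist signal (6.56) nor signal of the Y-linked genes Eif2s3y (5.70) and Kdm5d (5.43). Of 5 sex-linked genes tested 0 passed between the litters in limma, with 0 at an unadjusted p under 0.05 and 0 in the methods' t-test. The methods' t-test is the Student's t-test that the authors used between genotypes. It was applied here between the litters, a comparison for which the authors name no test.

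Litter 3 and litter 1 differed in the signal of 3751 of 11297 probes, 33.2% of those tested, at an adjusted p under 0.05 in limma with genotype as a covariate. Of these probes 2124 (18.8%) were higher and 1627 (14.4%) were lower in litter 3. In 1414 probes (12.5%) the 6 mice of litter 3 did not overlap the 6 mice of litter 1. Among genes, 2104 of 7136 passed (29.5%), 1347 higher (18.9%) and 757 lower (10.6%), and 754 genes (10.6%) did not overlap between the litters. Most differences were small, with a median size of 0.33 on the log2 scale among the genes that passed and a ratio under 1.5 in 1882 of them. The first principal component of the 12 arrays held 41.6% of the variance and placed every mouse of litter 3 on 1 side and every mouse of litter 1 on the other.

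Genes of the dividing cell were higher in litter 3. Of 14 mitosis genes tested, 11 rose and 0 fell, with a median log2 difference of 0.40. Of 26 DNA replication genes 19 rose and 0 fell (median 0.32). The shares over all genes tested were 18.9% and 10.6%. Aurka, the kinase that builds the spindle poles, had log2 signals of 9.02, 9.19 and 9.47 (lowest, median and highest mouse) in litter 3, against 8.51, 8.63 and 8.86 in litter 1. No mouse of litter 3 was as low as any mouse of litter 1, and the log2 difference was 0.57 ± 0.08 (standard error of the fit, adjusted p = 0.000206). Tyms, which makes the thymidylate used for DNA, was the most changed replication gene, at 9.66, 9.91 and 10.11 in litter 3 and 9.05, 9.36 and 9.51 in litter 1. Its log2 difference was 0.60 ± 0.09 (adjusted p = 0.000277), again without overlap. Plk1, Tpx2 and Cdk1, which drive entry into mitosis and spindle assembly, had log2 differences of 0.51, 0.48 and 0.48, and none overlapped between the litters. Gins2, Mcm4 and Mcm2, parts of the helicase that opens DNA at replication origins, differed by 0.45, 0.46 and 0.43, also without overlap. Mcm5, another helicase subunit (0.38), and Prc1, which bundles the microtubules of the midzone (0.36), passed with overlapping litters.

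Histone genes moved with them. Of 16 core and linker histone genes tested, 12 rose and 0 fell, against 18.9% and 10.6% of all genes tested. Their median log2 difference was 0.32, and 7 rose in the methods' t-test. H2ac12, which encodes a core histone H2A, had 13.78, 13.87 and 14.14 in litter 3 and 13.39, 13.49 and 13.66 in litter 1, a log2 difference of 0.42 ± 0.08 (adjusted p = 0.00105). H2bc7, which encodes a histone H2B, differed by 0.51 ± 0.13 (adjusted p = 0.00649; 0.0535 in the methods' t-test), and in both genes the litters did not overlap. Histone genes are near-identical copies of each other, so the gene that a histone probe reads is uncertain. The mean log2 signal of the mitosis genes, taken relative to the mean of litter 1, was between 0.29 and 0.56 in the 6 mice of litter 3 and between -0.15 and 0.15 in the 6 mice of litter 1. The median was 0.325 in litter 3, 0.0036 in litter 1 and 0.0020 in litter 2, whose 6 mice lay between -0.074 and 0.31. For the replication genes the medians were 0.28 in litter 3, 0.029 in litter 1 and -0.020 in litter 2. Without the 2 arrays of litter 2 whose source label names cerebellum, its medians were 0.073 for mitosis and 0.024 for replication.

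**Figure D1:**
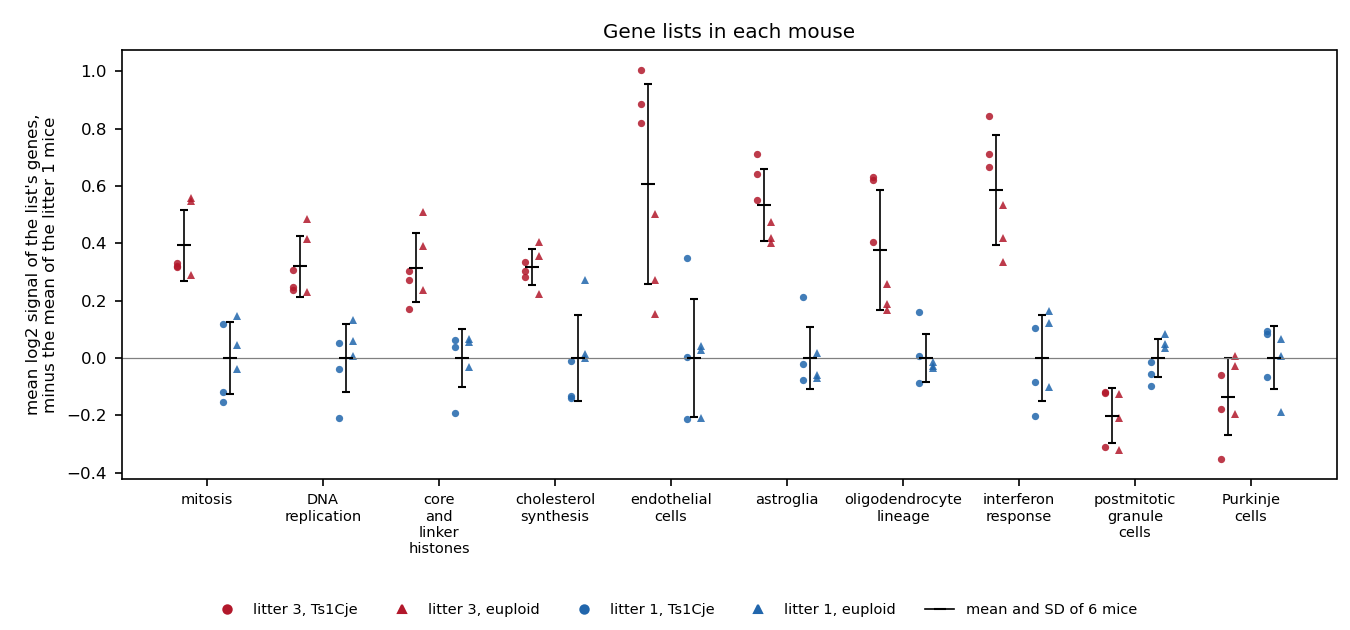
Mean log2 signal of the tested genes of 10 lists in each mouse, relative to the mean of the 6 litter 1 mice (0 on the y axis). Red marks are litter 3 and blue marks litter 1, circles Ts1Cje and triangles euploid mice, and black bars the mean and SD of 6 mice. The litters do not overlap in the mitosis, DNA replication, histone, astroglia, oligodendrocyte, interferon and postmitotic granule cell lists. They overlap in the cholesterol synthesis, endothelial and Purkinje cell lists. In the oligodendrocyte list the gap is narrow, from 0.162 in litter 1 to 0.168 in litter 3.

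The promoters of these genes are shown because the mitosis and the replication genes moved together. Promoter windows of 300 bases (250 before and 50 after the start, RefSeq, GRCm38.p6) were matched for 12 of 14 mitosis genes, 21 of 26 replication genes and 5863 of 7136 genes tested, and searched on both strands. The letters of the CHR element, TTTGAA, an element of genes used late in the cell cycle, stood in 8 of 12 mitosis promoters (66.7%) and in 13.3% of the promoters of all genes tested. The letters of an E2F site, TTTNNCGC, stood in 10 of 21 replication promoters (47.6%) and in 10.7% of all. The CCAAT box (CCAAT) stood in 9 of 12 mitosis, 11 of 21 replication, 13 of 13 histone and 10 of 10 cholesterol synthesis promoters, against 43.9% of all. The letters of a sterol regulatory element (SRE), TCACNCCAC, stood in 1 of 10 cholesterol synthesis promoters and in 1.55% of all. The shares of the lists cover every tested member, passed or not, and so do not depend on the litters. Matches of different motifs may share bases, histone genes can share a window, and a match describes the letters and not a bound factor. The windows below belong to the member of 3 lists with the smallest p that holds the motif, with its letters on either strand in capitals. They are the CHR element of Aurka (chr2:172370521-172370820, minus strand), the E2F letters of Tyms (chr5:30073576-30073875, minus strand) and the CCAAT boxes of Nsdhl, a cholesterol synthesis gene (chrX:72918271-72918570, plus strand).
Aurka: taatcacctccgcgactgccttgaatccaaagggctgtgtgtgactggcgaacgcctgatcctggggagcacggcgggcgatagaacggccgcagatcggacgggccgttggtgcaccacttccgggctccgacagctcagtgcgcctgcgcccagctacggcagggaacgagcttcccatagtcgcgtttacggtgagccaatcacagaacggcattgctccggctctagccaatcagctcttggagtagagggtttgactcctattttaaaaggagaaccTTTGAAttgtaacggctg
Tyms: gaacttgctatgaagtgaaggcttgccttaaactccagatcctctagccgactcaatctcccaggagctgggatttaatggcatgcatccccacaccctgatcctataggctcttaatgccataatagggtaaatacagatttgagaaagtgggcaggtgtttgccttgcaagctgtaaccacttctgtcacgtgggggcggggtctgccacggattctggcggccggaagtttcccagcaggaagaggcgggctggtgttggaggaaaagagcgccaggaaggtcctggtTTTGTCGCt
Nsdhl: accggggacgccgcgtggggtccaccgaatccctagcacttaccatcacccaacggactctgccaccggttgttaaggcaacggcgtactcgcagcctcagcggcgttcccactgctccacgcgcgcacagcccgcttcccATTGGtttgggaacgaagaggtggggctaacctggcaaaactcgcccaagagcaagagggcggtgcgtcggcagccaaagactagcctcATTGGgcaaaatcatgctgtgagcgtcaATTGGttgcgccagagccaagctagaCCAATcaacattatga

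Across all genes, the CHR letters stood in 17.6% of the promoters of genes higher in litter 3, in 14.2% of those of genes lower in litter 3 and in 12.05% of those of genes that did not pass. The E2F letters stood in 11.5% of the promoters of genes higher, 9.52% of genes lower and 10.65% of genes that did not pass. In the same order the shares were 48.3%, 37.9% and 43.6% for the CCAAT box and 1.62%, 2.84% and 1.35% for the SRE.

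Granule cell precursor markers did not move as a group. Of 11 tested, 3 rose and 2 fell, and the median log2 difference was 0.043, but 0 fell without litter 1 replicate 5 or litter 3 replicate 1 or 3. One of these was Tlx3, a homeobox factor of the precursors, which differed by -1.12 ± 0.35 with overlapping litters and also lost its call without litter 1 replicate 1. Tlx3 did not pass either with all 18 arrays in the fit, without a filter, with Y-linked signal as a covariate or in the methods' t-test. Ccnd2 and Ccnd1, the D cyclins of the precursors, rose by 0.37 ± 0.08 and 0.35 ± 0.09 (adjusted p = 0.00406 and 0.00969). Ccnd1 had 12.44, 12.67 and 12.75 in litter 3 and 11.99, 12.29 and 12.53 in litter 1, so that the litters overlapped slightly. Sfrp1, a secreted Wnt antagonist, rose by 0.32 ± 0.07 (adjusted p = 0.0047; 0.121 with all 18 arrays in the fit). Zic1 had medians of 12.83 in litter 3 and 12.75 in litter 1 and a log2 difference of 0.04 ± 0.09 (adjusted p = 0.729). Among Notch targets, Nrarp, a feedback inhibitor of Notch, rose by 0.56 ± 0.08 without overlap (adjusted p = 0.000152), and Hey1 and Hes5, transcriptional repressors, rose by 0.40 ± 0.09 and 0.48 ± 0.14, although Hes5 had an adjusted p of 0.0529 with all 18 arrays in the fit and 0.0504 in the methods' t-test. Over 10 Notch pathway genes 3 rose and 1 fell, and over 9 Sonic hedgehog pathway genes 4 rose and 0 fell, with medians of 0.10 and 0.083, against 18.9% of all genes tested that rose and 10.6% that fell. The 1 Notch pathway gene that fell did not pass without litter 1 replicate 1 or litter 3 replicate 1, 3 or 6, and the hedgehog count was 2 without litter 1 replicate 6 or litter 3 replicate 1 or 3.

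Genes of cholesterol synthesis were higher in litter 3 almost as a whole. Of 13 tested, 12 rose and 0 fell, against 18.9% and 10.6% of all genes tested. Their log2 differences were between 0.25 and 0.52 with a median of 0.31, and 8 rose with all 18 arrays in the fit. Nsdhl, a sterol dehydrogenase of the pathway, had 10.97, 11.08 and 11.27 in litter 3 and 10.35, 10.56 and 10.89 in litter 1. It rose by 0.52 ± 0.08 (adjusted p = 0.000317), and its litters did not overlap. Lss, which closes the sterol rings, and Fdps, which makes farnesyl diphosphate, rose by 0.38 ± 0.09 and 0.33 ± 0.08. Hmgcs1, which makes the precursor of mevalonate, rose by 0.32 ± 0.08 (adjusted p = 0.00728; 0.0591 after quantile normalization). Relative to the mean of litter 1, the mean signal of the list was between 0.22 and 0.40 in litter 3 and between -0.14 and 0.27 in litter 1, where 1 euploid mouse overlapped with litter 3. The mice of litter 2 had a median of -0.125, and of -0.157 without the 2 arrays labelled as cerebellum.

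Genes of vascular and glial cells were higher in litter 3. All 13 endothelial markers tested rose, with a median log2 difference of 0.56 and a range of 0.32 to 1.15, against 18.9% of all genes tested, and 8 rose in the methods' t-test. Vwf, the endothelial clotting factor carrier, had 8.18, 8.51 and 8.69 in litter 3 and 6.94, 7.61 and 8.20 in litter 1. Only 2 mice of litter 3 lay under the highest mouse of litter 1, and the log2 difference was 0.86 ± 0.10 (adjusted p = 2.37e-05). Itm2a, a membrane protein of brain endothelium, rose by 1.15 ± 0.21, Esam, a junction protein, by 0.77 ± 0.15, and Cdh5, the endothelial cadherin, by 0.70 ± 0.14. The summed linear signal of the endothelial list was between 9257 and 16150 in litter 3 and between 6827 and 10410 in litter 1. Of 4 pericyte markers tested 2 rose and 0 fell, with Vtn, vitronectin, at 0.96 ± 0.20 and Higd1b at 0.44 ± 0.09.

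Astroglial markers rose too, 10 of 12 tested on their brightest probes, with 0 that fell and a median log2 difference of 0.42. Over all genes tested 18.9% rose and 10.6% fell. Tnc did not pass on its brightest probe (0.08), and its dimmer probes differed by -0.37, -0.49 and -0.79. The dimmer probe of Gdf10 differed by 0.19. Aqp4, the water channel of astroglial end feet, had 9.45, 9.85 and 10.70 in litter 3, against 8.16, 8.67 and 9.35 in litter 1. The litters did not overlap, and the difference was 1.25 ± 0.13 (adjusted p = 1.69e-05), a ratio of 2.37. Gja1, the gap junction protein connexin 43, had 10.88, 11.18 and 11.57 in litter 3 and 9.96, 10.17 and 10.76 in litter 1, a difference of 0.95 ± 0.13 (adjusted p = 0.000112). Apoe, the lipid carrier, differed by 1.20 ± 0.19 (adjusted p = 0.00037; 0.0523 in the methods' t-test) and Id3, an inhibitor of differentiation, by 0.52 ± 0.07. Slc1a3, the glutamate transporter of radial and Bergmann glia and the brightest marker of the list, had medians of 13.78 in litter 3 and 13.61 in litter 1 and did not pass (0.15 ± 0.06, adjusted p = 0.0904; 0.0478 without litter 3 replicate 6). Of 10 oligodendrocyte lineage markers 5 rose and 0 fell, but 3 rose with all 18 arrays in the fit and 2 in the methods' t-test. Sox10 and Gpr17, a transcription factor and a receptor of oligodendrocyte progenitors, differed by 0.54 ± 0.10 and 0.57 ± 0.10. Cldn11, a claudin, differed by 1.52 ± 0.35 (adjusted p = 0.00472 in limma and 0.0627 in the methods' t-test). It spanned 7.40 to 10.13 in litter 3 and 6.73 to 8.50 in litter 1. The list members Pdgfra, Mbp, Cnp, Ugt8a and Bcas1 did not pass, at 0.23, -0.04, 0.19, 0.01 and 0.02. A dimmer probe of Mbp differed by 0.74.

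Meningeal and choroid plexus markers varied more between mice. Of 21 meningeal markers 6 were tested, of which 4 rose and 0 fell, with a median log2 difference of 0.75. The shares over all genes tested were 18.9% and 10.6%. Igf2, the growth factor made by the meninges, had 9.95, 12.25 and 12.98 in litter 3 and 10.11, 11.09 and 11.69 in litter 1. Slc6a13, a GABA and taurine transporter of the meninges, had 5.95, 8.74 and 9.58 in litter 3 and 5.77, 7.12 and 8.17 in litter 1. The litters overlapped in both genes, and the log2 differences of 1.06 ± 0.36 and 1.33 ± 0.45 (adjusted p = 0.0343 and 0.0335) were lost when any of litter 1 replicates 1, 5 and 6 or litter 3 replicates 1, 2, 3, 5 and 6 was left out. The count of 4 meningeal genes was 1 or 2 without any of these mice. Ttr, transthyretin, the main product of the choroid plexus epithelium, had the largest difference of all genes, with 7.69, 7.89, 8.07, 9.98, 11.68 and 13.58 in the mice of litter 3 and 6.54 to 6.98 in litter 1. Every mouse of litter 3 was above every mouse of litter 1, the log2 difference was 3.10 ± 0.80 (adjusted p = 0.00833), and it was 2.27 without litter 3 replicate 2. In the methods' t-test it did not pass (adjusted p = 0.302). The only other tested choroid plexus marker, Otx2, had medians of 7.75 in litter 3 and 8.35 in litter 1 and did not pass (adjusted p = 0.846). The summed linear signal of the choroid plexus list was between 929 and 13610 in litter 3 and between 775 and 1091 in litter 1. The list held 12 markers, of which 10 were on the array and 2 were tested. Its sum includes Ttr and so is not separate evidence. The mean log2 signal of Ttr in litter 1, 6.72, was under the 7.14 used as signal floor.

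Of 18 microglia and macrophage markers, 15 were on the array and none reached the signal floor, with summed signals of 1167 to 1828 in litter 3 and 1003 to 1183 in litter 1. Hba-a1, a haemoglobin chain of red blood cells with a near-identical copy in the genome, had medians of 12.35 in litter 3 and 12.29 in litter 1 and did not pass (0.03 ± 0.20, adjusted p = 0.924). Interferon response genes rose in 4 of 6 tested, against 18.9% of all genes tested, with a median log2 difference of 0.48. Bst2, the tetherin that holds back budding viruses, had 7.56, 8.38 and 8.62 in litter 3 and 7.001, 7.11 and 7.49 in litter 1 (1.07 ± 0.14, adjusted p = 9.61e-05). Ifitm3, an antiviral membrane protein, had 7.98, 8.37 and 8.89 in litter 3 and 6.79, 7.21 and 7.71 in litter 1 (1.15 ± 0.18, adjusted p = 0.000367). In both genes the litters did not overlap, and endothelial cells are known to express them too. B2m, the light chain of MHC class I, differed by 0.96 ± 0.19, while H2-D1, a heavy chain, had medians of 8.75 in litter 3 and 8.97 in litter 1 (adjusted p = 0.943). The part of these cell types in the differences of other genes was not tested.

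**Figure D2:**
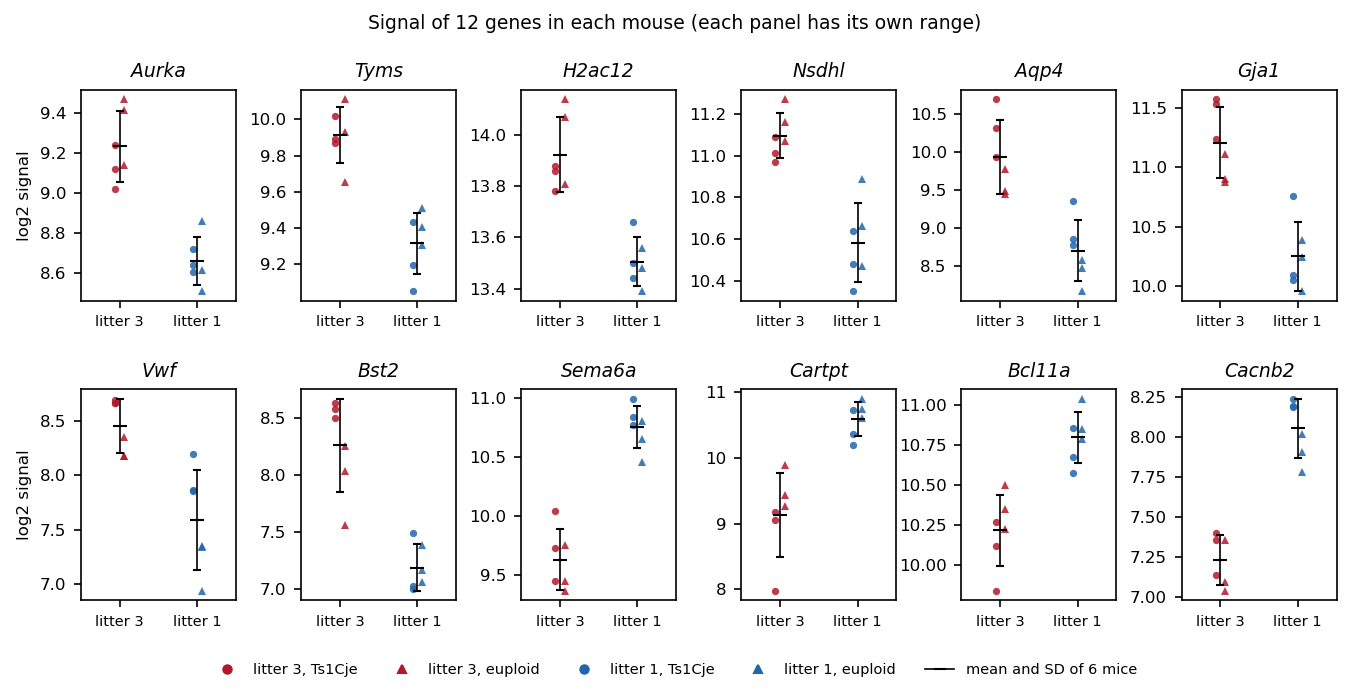
Log2 signal of 12 genes in each mouse of litter 3 (red) and litter 1 (blue), circles for Ts1Cje and triangles for euploid mice, black bars for the mean and SD of 6 mice. The y axis of each panel has its own range. The litters overlap in the panel of Vwf, where the lowest mouse of litter 3 (8.18) lies just under the highest mouse of litter 1 (8.20), and do not overlap in the other panels.

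Several genes of young neurons were lower in litter 3. Of 13 markers of postmitotic granule cells 0 rose and 5 fell, with a median log2 difference of -0.12 (10.6% of all genes tested fell). The count was 3 without litter 1 replicate 6 or litter 3 replicate 3. Sema6a, a semaphorin that young granule cells use in their migration, had 9.37, 9.59 and 10.04 in litter 3 and 10.46, 10.78 and 10.99 in litter 1. The litters did not overlap, and the gene fell by 1.12 on the log2 scale (standard error 0.10, adjusted p = 3.44e-06), while its dimmer probes differed by -0.24, -0.27 and -0.39, of which the last passed. Stmn2 and Dcx, microtubule proteins of growing neurites, differed by -0.35 ± 0.07 and -0.26 ± 0.08. In the list of neuronal maturation 1 of 13 tested rose and 3 fell, with a median of -0.10. The 3 were 1 with all 18 arrays in the fit or without any of litter 1 replicates 3, 4, 5 and 6 and litter 3 replicates 1, 3 and 4, and 5 without litter 1 replicate 2. Syt1, the calcium sensor of synaptic vesicles, differed by -0.38 ± 0.08. Syn2, a synapsin of synaptic vesicles, went the other way, with 9.08, 9.44 and 9.96 in litter 3 and 8.02, 8.52 and 9.44 in litter 1 (0.83 ± 0.18, adjusted p = 0.00366; 0.0557 in the methods' t-test). Among 9 Purkinje cell markers 1 rose and 3 fell. Bcl11a and Foxp2, transcription factors of several neuron types, fell by 0.58 ± 0.09 and 0.54 ± 0.08 without overlap. Calb1, the calbindin of Purkinje cells, rose by 0.39 ± 0.11 (adjusted p = 0.0182; 0.214 with all 18 arrays in the fit and 0.0556 with Y-linked signal as a covariate), and Pcp2, the most specific of these markers, had medians of 11.52 in litter 3 and 11.44 in litter 1 (adjusted p = 0.755). Of 4 markers of GABAergic interneurons Ptf1a, a factor that specifies these cells, rose by 0.61 ± 0.16 (adjusted p = 0.0113; 0.0533 in the methods' t-test) and Gad2, a glutamate decarboxylase, fell by 0.30 (standard error 0.11, adjusted p = 0.0455), both named after their values were seen. Gad2 did not pass with all 18 arrays in the fit, under either other normalization or without any of litter 1 replicates 1, 5 and 6 and litter 3 replicates 1, 3, 5 and 6.

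Some single genes differed by more than the lists did. Otx1, a homeobox factor of the brain, had 8.58, 9.07 and 9.52 in litter 3 and 6.32, 6.94 and 7.89 in litter 1, a log2 difference of 2.05 ± 0.20 (adjusted p = 6.22e-06) and a ratio of 4.13. Gpx8, a peroxidase of the endoplasmic reticulum, had a narrow range in litter 3 (9.90 to 10.02) above that of litter 1 (8.81 to 9.35) and the smallest p of the genes that rose (0.88 ± 0.08, adjusted p = 3.32e-06). Gadd45g, a gene induced at cell cycle exit and by stress, rose by 0.70 ± 0.07, and Mmd2 by 1.05 ± 0.11. Cartpt, a neuropeptide precursor, had 7.98, 9.22 and 9.90 in litter 3 and 10.20, 10.67 and 10.90 in litter 1 and fell by 1.45 on the log2 scale (standard error 0.19, adjusted p = 8.02e-05). Lrrtm1 and Pcdh10, adhesion molecules of synapses and axons, fell by 1.06 ± 0.11 and 0.94 ± 0.13, both without overlap.

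In some of the largest differences the signal took separate levels rather than a range. Rpl29, a ribosomal protein, lay between 9.39 and 10.38 in all 6 mice of litter 3, while 5 mice of litter 1 lay between 6.40 and 6.66 and the sixth, euploid replicate 4, at 9.28. The mean of litter 2 was 9.70. The unnamed probe ILMN_2746483 had the same pattern, at 9.36 to 10.38 in litter 3, 7.14 to 7.42 in 5 mice of litter 1 and 9.65 in that same mouse. Casp9, an initiator caspase of cell death, lay between 5.71 and 5.82 in 4 mice of litter 3 and at 8.61 and 8.87 in the other 2, both Ts1Cje, against 8.90 to 9.77 in litter 1. The dimmer probe of Casp9 fell by 0.63 (standard error 0.08), whereas the brighter one fell by 2.78 on the log2 scale. Slc25a18, a mitochondrial glutamate carrier, lay between 6.61 and 6.94 in the 3 euploid mice of litter 1 and between 8.34 and 10.06 in the other 9 mice of the 2 litters.

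Genes with a long genomic span were lower in litter 3 more often than short genes. Span was taken from the RefSeq annotation of GRCm38.p6 for 7131 of 7136 genes, and the genes were split by span into 5 bins of equal size. Of the genes of the shortest bin, up to 7.95 kb long, 24.2% rose and 5.7% fell, and of the longest bin, from 71.4 kb, 12.1% rose and 20.7% fell. The shares of both calls changed in steps across the bins between them. The median span was 48.5 kb among the genes that fell, 17.7 kb among those that rose and 23.6 kb among those that did not pass, and those over 100 kb were 30.8% of the genes that fell, 8.54% of those that rose and 12.8% of those that did not pass. For the longest bin the median log2 difference was -0.041 in Ts1Cje mice and -0.070 in euploid mice. For the shortest bin it was 0.131 in Ts1Cje mice and 0.052 in euploid mice. After quantile normalization the longest bin had 28.0% that fell and 13.4% that rose. The median of the mean signal was 9.30 in the shortest bin and 8.87 in the longest.

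**Figure D3:**
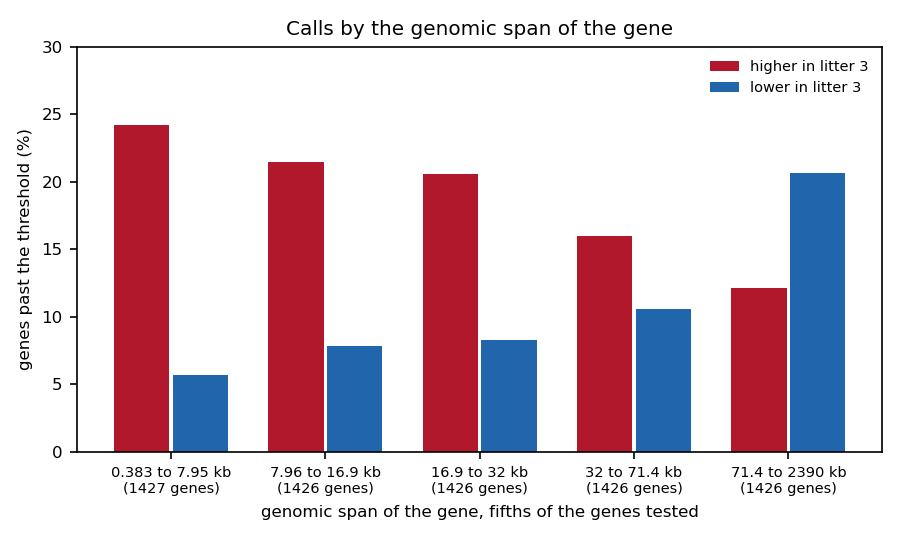
Share of genes past the threshold (y axis, percent) by 5 bins of genomic span (x axis, kb, RefSeq GRCm38.p6), red for higher and blue for lower in litter 3. The red bars get shorter across the bins, 24.2% in the shortest genes and 12.1% in the longest, and the blue bars get taller, 5.7% in the shortest genes and 20.7% in the longest.

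Among the long genes that fell, Map2, a dendritic microtubule protein (267 kb), had 8.45, 8.69 and 8.87 in litter 3 and 9.30, 9.54 and 9.73 in litter 1 and fell by 0.84 on the log2 scale (standard error 0.08, adjusted p = 1.05e-05). Cacnb2, a calcium channel subunit (385 kb), had 7.04, 7.25 and 7.40 in litter 3 and 7.78, 8.10 and 8.24 in litter 1 and fell by 0.82 (standard error 0.08, adjusted p = 5.51e-06). Neither gene overlapped between the litters. Of the dimmer probes of Map2, 1 fell by 0.59 and the other did not pass (adjusted p = 0.315). St6galnac3, a sialyltransferase (527 kb), fell by 0.74 ± 0.07, and Gpc6, a heparan sulfate proteoglycan (1055 kb), by 0.85 ± 0.09, although a dimmer probe of Gpc6 rose by 0.38. Chosen after their values were seen, Cacna1a, the main calcium channel of cerebellar neurons, fell by 0.68 ± 0.08, Nrxn3, a presynaptic adhesion molecule, by 0.64 ± 0.09, Robo2, a receptor of axon guidance, by 0.59 ± 0.08, and Lrp1b by 0.58 ± 0.09. All 4 probes of Nrxn3 fell, by 0.37 to 0.89. Also chosen in this way, Myt1l, a transcription factor that keeps neurons neuronal, differed by -1.25 ± 0.21 with 1 mouse of litter 3 inside the range of litter 1, and Auts2 by -0.48 ± 0.08 without overlap. Kcnj6, a potassium channel subunit in the segment carried in 3 copies, fell by 0.55 ± 0.09 (adjusted p = 0.000436; 0.116 in the methods' t-test). Among the long genes, Zfhx3, a homeobox factor (682 kb), went the other way with 7.02, 7.62 and 10.52 in litter 3 and 6.45, 6.69 and 7.005 in litter 1 (1.47 ± 0.43, adjusted p = 0.0176; 0.0641 with Y-linked signal as a covariate and 0.2525 in the methods' t-test).

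Probes without a gene name behaved differently from named ones. Of 2234 unnamed probes tested 931 passed (41.7%), 358 higher (16.0%) and 573 lower (25.6%), while of 9063 named probes 19.5% were higher and 11.6% lower. In the dimmest of 5 bins of mean signal 33.0% of the unnamed probes fell and 12.2% rose, and in the brightest bin 14.2% fell and 24.7% rose. The mean log2 signal of the unnamed probes was between 8.83 and 9.02 in litter 3 and between 8.96 and 9.05 in litter 1. The unnamed probe ILMN_1252575 had 7.57, 7.81 and 7.99 in litter 3 and 9.10, 9.65 and 9.95 in litter 1, and fell by 1.82 (standard error 0.13, adjusted p = 4.25e-07).

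Different probes of a gene did not always move the same way. Of 1535 genes with several tested probes, 301 had at least 2 that passed, and in 38 of these the probes passed in opposite directions. The brightest called probe was higher in 17 of the 38 genes and lower in 21. Mapt, Tcf12 and Msi2 were picked as examples once their values were known. Mapt, the axonal microtubule protein tau, fell by 0.29 ± 0.07 on its brightest probe (12.25 to 12.49 in litter 3, 12.50 to 12.79 in litter 1), while its dimmer probe rose by 0.90 ± 0.11 (9.09 to 9.49 in litter 3, 8.18 to 8.94 in litter 1). Tcf12, an E protein, rose by 0.40 ± 0.10 on its brightest probe, and a dimmer probe fell by 0.79 ± 0.11. Msi2, an RNA-binding protein of progenitors, had 5 tested probes, of which 1 fell by 1.25 ± 0.08 (8.42 to 8.76 in litter 3, 9.48 to 10.10 in litter 1), 1 fell by 0.41, 2 rose by 0.34 and 0.29, and the brightest did not pass (adjusted p = 0.658). Reln, the secreted guide of neuronal migration, fell on all 3 probes, by 1.09 ± 0.10 on the probe of middle signal (7.82 to 8.33 in litter 3, 8.85 to 9.27 in litter 1) and by 0.21 ± 0.07 on the brightest. The brightest probe did not pass (highest adjusted p 0.0842) without any of litter 1 replicates 2, 3, 4 and 6 or litter 3 replicates 2, 3, 4 and 5.

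The litter difference was also split by genotype, into contrasts that share no mice but come from the same arrays as the main comparison. Both contrasts use the same litters and slides, so a shared direction is not a replication. Within Ts1Cje mice, 3 against 3, 2223 probes passed (19.7%), 1303 higher and 920 lower, and within euploid mice 1178 (10.4%), 537 higher and 641 lower. The counts were unstable to single mice, at 1086 in Ts1Cje mice without litter 1 replicate 1 and 1457 without litter 3 replicate 6, and at 761, 544, 534 and 532 in euploid mice without litter 1 replicates 3, 4 and 6 and litter 3 replicate 1. Of the 1303 probes higher in Ts1Cje mice 96.2% had a positive difference in euploid mice, and of the 920 lower 93.7% had a negative one, against 77.9% with the same sign among all probes. In both genotypes 752 probes passed in the same direction, 335 higher and 417 lower, and 2 passed in opposite directions. Across the 11297 probes the differences of the genotypes had a Pearson r of 0.70, over points that share the slides and the probes' base composition and are not independent. The median differences of the lists were alike for mitosis (0.41 in Ts1Cje and 0.42 in euploid mice) and DNA replication (0.33 and 0.34). They were further apart for endothelial cells (0.79 in Ts1Cje and 0.30 in euploid mice) and meninges (1.41 and 0.32), though no gene of these lists passed the interaction test below.

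**Figure D4:**
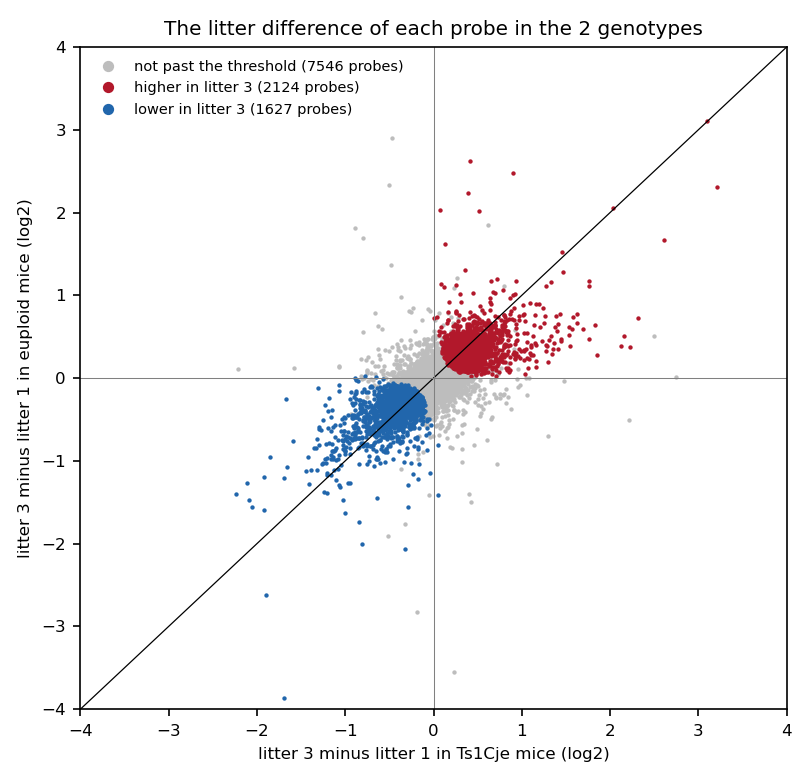
Difference of litter 3 minus litter 1 (log2) of each of 11297 probes in Ts1Cje mice (x axis, 3 against 3 mice) and in euploid mice (y axis, 3 against 3 mice). Red points are the 2124 probes higher and blue points the 1627 probes lower in litter 3 over both genotypes, grey points did not pass, and the line marks equal differences. Red points lie mostly above 0 on both axes and blue points mostly below 0 on both.

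The test of the difference itself, the litter by genotype interaction, was passed by 11 probes (0.0974%), 7 of which had a gene name. Cdkl2, a cyclin-dependent kinase-like kinase, and Ccng2, a cyclin of resting cells, both of chromosome 5, shared a pattern. Cdkl2 had 7.64, 8.07 and 8.95 in the Ts1Cje mice of litter 3 and 8.67, 8.56 and 8.84 in those of litter 1, but 8.80, 8.71 and 8.76 in the euploid mice of litter 3 against 6.00, 5.80 and 5.76 in those of litter 1. The litter difference was -0.47 in Ts1Cje and 2.90 in euploid mice (interaction -3.37 ± 0.31, adjusted p = 9.40e-05). Ccng2 had differences of -0.51 in Ts1Cje and 2.33 in euploid mice, and Fgfr1op2, a gene of chromosome 6, of 0.41 and 2.63. In all 3 genes the 3 euploid mice of litter 1 lay apart from the other mice, between 5.76 and 6.24. Dlk1, the imprinted Notch ligand homologue, was low instead in the 3 euploid mice of litter 3 (6.44, 7.18 and 7.21) and between 8.07 and 8.96 in the other 9 mice. Leaving out single mice gave between 4 and 56 interaction probes, with 5, 44, 4 and 5 without litter 1 replicates 1, 2, 3 and 4 and 56, 4 and 29 without litter 3 replicates 3, 5 and 6.

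Gene lists of cell metabolism and stress showed smaller shifts. Over all genes tested, 18.9% rose and 10.6% fell. Of 42 ribosomal protein genes 17 rose and 0 fell, with a median log2 difference of 0.16, but 6 rose and 2 fell after quantile normalization, and 10 rose without litter 3 replicate 3. Rpl7 rose by 0.27 ± 0.06 without overlap, while Rps29, among the brightest, had medians of 14.67 in litter 3 and 14.55 in litter 1 and did not pass (adjusted p = 0.199). Of 61 genes of the respiratory chain and ATP synthase 17 rose and 2 fell (median 0.16), with Ndufa6 of complex I at 0.41 ± 0.08 and Atp5b, the catalytic subunit of ATP synthase, at 0.09 ± 0.06 (adjusted p = 0.314). Here 10 or 11 rose without any of litter 1 replicates 1 and 6 and litter 3 replicates 3, 4, 5 and 6, and 5 with Y-linked signal as a covariate. The brightest probe of Atp5a1, another ATP synthase subunit, fell by 0.65 ± 0.13 and its dimmer probe rose by 0.31. Of 6 heat shock genes 4 rose and 0 fell, with Hspb1, a small heat shock protein, at 8.47, 8.55 and 8.76 in litter 3 and 7.32, 7.95 and 8.31 in litter 1 (0.71 ± 0.15, adjusted p = 0.00238). Of 11 genes of the unfolded protein response 4 rose and 0 fell, led by Hsp90b1, a chaperone of the endoplasmic reticulum, at 0.43 ± 0.07.

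Lists of genes that respond to the hour or to handling are read against the 18.9% of all genes that rose. Of 5 immediate early genes tested 0 passed in limma, with 1 at an unadjusted p under 0.05 and 0 in the methods' t-test, and 2 fell without litter 3 replicate 5. Egr1, the most variable of them, spanned 7.06 to 9.42 in litter 3 and 7.83 to 9.18 in litter 1. Of 10 circadian clock genes 3 rose and 0 fell, and 1 rose without litter 1 replicate 4. Nr1d2, a repressor of the clock, had 8.14, 8.61 and 8.78 in litter 3 and 7.79, 7.95 and 8.36 in litter 1 (0.48 ± 0.12, adjusted p = 0.00846). Of 8 glucocorticoid targets 2 rose and 0 fell, with Ddit4, a stress-induced brake on growth signalling, at 0.46 ± 0.09 and Sgk1, a steroid-induced kinase, at medians of 10.06 in litter 3 and 9.996 in litter 1 (adjusted p = 0.93). Slc2a1, the glucose transporter of the blood-brain barrier and a hypoxia target, rose by 0.70 ± 0.12 in a list of 14 where 4 rose and 1 fell. That list had 2 that rose without litter 1 replicates 1, 4 or 6 or litter 3 replicate 4. Of 13 imprinted genes 3 rose and 0 fell.

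**Figure D5:**
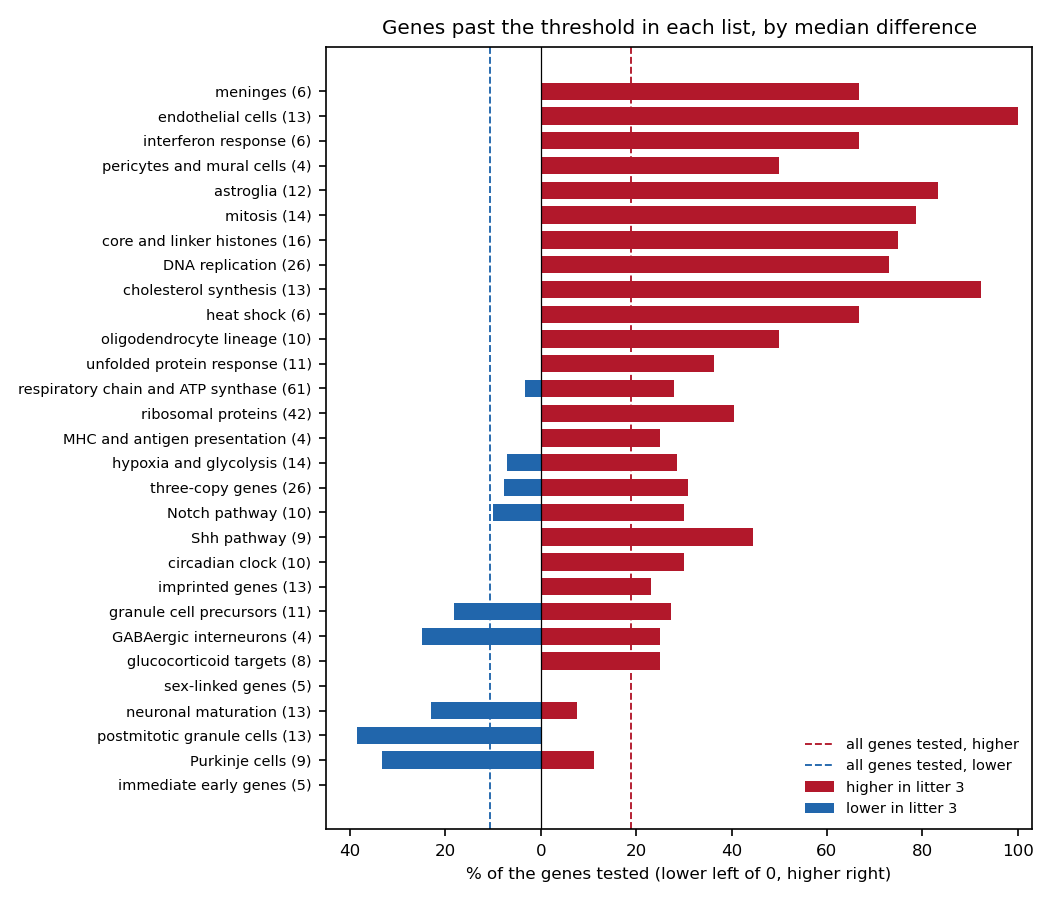
Share of the genes tested that passed the threshold in each list shown (x axis, percent). Bars to the right of 0, in red, are genes higher in litter 3, and bars to the left, in blue, are genes lower. The lists are ordered by median log2 difference on the y axis, with the number tested in brackets. The microglia and macrophage list had 0 genes tested and so has no share. The dashed lines mark the shares of all genes tested, 18.9% higher and 10.6% lower. The bars of endothelial, cholesterol synthesis, astroglia, mitosis, histone and replication genes reach furthest to the right, and those of postmitotic granule and Purkinje cells furthest to the left.

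Litter 2 was placed against the other litters on the genes that passed between them. Among the 1347 genes higher in litter 3, the mean of litter 2 was nearer that of litter 1 in 1097 (81.4%), and among the 757 genes lower in litter 3 it was nearer litter 1 in 313 (41.35%). Without the 2 arrays of litter 2 whose source label names cerebellum, these shares were 75.9% and 30.9%. Gja1, for example, averaged 11.20 in litter 3, 10.25 in litter 1 and 10.55 in litter 2, whereas Cacnb2 averaged 7.23 in litter 3, 8.05 in litter 1 and 7.57 in litter 2. The litter 2 mean lay between the other means for 69.3% of the genes higher and 83.5% of the genes lower in litter 3. The genes were chosen for a difference between litter 3 and litter 1, so litter 2 tends to lie between them by selection. The shares describe which mean it was nearer and do not settle which litter stood apart. Litter 2 has its own slide too, so this order holds for litters and slides alike.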

How the data were processed

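Total RNA of individually dissected P0 external granule cell layers was hybridized to Illumina mouse-6 bead arrays. The log2 signals were used as deposited, after the authors had read the arrays in Beadstudio and normalized them by the mean signals of the 18 arrays; the genome build of the probes is not given in the sources used here. Probes with a mean log2 signal of at least 7.14 over the 18 arrays were tested with limma 3.58.1 (R 4.3.3) on the 12 arrays, with genotype as a covariate and Benjamini-Hochberg adjustment over all probes tested (threshold 0.05). The contrasts within each genotype and the interaction came from a fit of 4 group means. Litters overlap unless every mouse of 1 lies above every mouse of the other. Array measures were compared by an exact permutation test within genotype. Symbols were updated to RefSeq (GRCm38.p6). Named were the genes with the most extreme differences without overlap, the smallest p in each direction, the smallest p and highest signal in each list and the smallest interaction p, plus genes that were picked once their values were known (named as such). The lists and the comparison were chosen with earlier results of these data known. The fit was tested on simulated data. Normalization, background, filter, samples, covariates and test were varied.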

Additional observations from a re-analysis of the deposited data

Results flagged for a closer look

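Among 204 groups of 6 mice checked, 13 held a mouse far from the other 5 of its litter, where chance alone gives about 1 in 20. In litter 3 these were the highest mouse for Ccnd2 (13.13) and the lowest for Lrp1b (7.322). In litter 1 the highest mouse stood apart for Lss (7.823), Hey1 (11.09), Gad2 (9.325), Rpl29 (9.275), Atp5a1 (10.03) and the unnamed probe ILMN_2746483 (9.652). The lowest mouse of litter 1 stood apart for Tlx3 (6.391), Otx2 (5.809), Casp9 (8.904), Atp5b (14.14) and Ddit4 (7.029). The Ts1Cje mouse litter 1 replicate 2 was the low one in 4 of these groups, and the euploid mouse litter 1 replicate 4 was the high one for Rpl29 and ILMN_2746483.

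The litter difference in Ts1Cje mice minus that in euploid mice passed the interaction test in limma for 11 probes. It was positive for the unnamed probes ILMN_1228434 (2.721, adjusted p = 2.53e-05) and ILMN_2654341 (0.8598, adjusted p = 0.0204). It was also positive for Dlk1 (1.807, adjusted p = 0.0173), Tpm4, a tropomyosin (0.9214, adjusted p = 0.0204), and Hsd17b11, a steroid dehydrogenase (0.8858, adjusted p = 0.0452). It was negative for Cdkl2 (-3.373), Ccng2 (-2.839) and Fgfr1op2 (-2.216), and for Dusp16, a phosphatase of MAP kinases (-1.851, adjusted p = 0.0452). The other negative ones were the unnamed probes ILMN_2589999 (-1.954, adjusted p = 0.0204) and ILMN_1234133 (-0.8387, adjusted p = 0.0452).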

How the results depend on the processing

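The count of 3751 probes between the litters was 5784 without a filter on dim probes and 4477 after quantile normalization. With single mice left out it was between 3109 and 4049, with 1698 to 2494 higher and 1242 to 1762 lower. With Y-linked signal as a covariate it was 2900 (1512 higher and 1388 lower), and with all 18 arrays in the fit 3077. The 1627 probes lower were 2726 without a filter and 1054 among the 8000 brightest probes. Leaving out mice for the contrasts within a genotype, the interaction and genotype, and the 2 arrays of litter 2 labelled cerebellum for the list medians, was chosen after seeing the data. Within Ts1Cje mice the 2223 probes were 3550 without a filter, 1391 among the 8000 brightest and 1086 to 2307 without single mice (501 to 1376 higher, 585 to 957 lower). The 920 lower were 1463 after quantile normalization, 1419 after scaling by the median, 1637 without a filter, 511 among the 8000 and 1382 among the 15000 brightest. Within euploid mice the 1178 probes were 1814 (quantile), 1830 (median), 692 (8000 brightest), 671 (all 18 arrays) and 532 to 1277 without single mice (197 to 651 higher, 282 to 728 lower). The 537 higher were 868 (quantile), 881 (median), 328 (8000 brightest) and 302 (18 arrays), and the 641 lower were 364 (8000 brightest) and 369 (18 arrays). The 11 interaction probes were 5 (2 positive and 3 negative) after quantile normalization, 6 (3 and 3) among the 8000 brightest, 3 (1 and 2) with 18 arrays and 4 to 56 without single mice (1 to 26 positive, 3 to 31 negative). The 33 probes between Ts1Cje and euploid mice were 50 (quantile), 54 (median), 67 (18 arrays) and 15 to 40 without single mice. The SD of the log2 signals differed by 0.017 over the probes tested (exact permutation test, two-sided, p = 0.045, smallest possible 0.005) and by 0.0141 over all probes (p = 0.505), and the median signal by 0.021 (p = 0.58) and -0.007206 (p = 0.505). Of 88 named genes and probes that passed, 71 passed under every alternative run, 17 did not under at least 1, and 0 changed sign. Of 14 that did not pass, 8 changed sign under at least 1. Many of these genes were named for a small p or a large difference, so the counts do not describe all genes that passed. The causes were not tested. No paired analysis was possible because replicates were numbered in accession order, which pairs no mice.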
